A study of Mus musculus with 6 samples.

Results

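The cadherin superfamily genes described here are those whose symbols are Cdh followed by a number, start with Pcdh, or are Fat1 to Fat4 or Celsr1 to Celsr3. Of 99 such symbols in the mouse gene table, 48 had a locus in the assembled transcript files, of 32348 genes with one. 31 of the 48 averaged at least 0.5 FPKM (fragments scaled to exon length and to mapped fragments) and were tested, of 11368 genes tested. The circular RNA lists held 60 circles assigned to members, of 11895 circles. 14 of those 60 circles had at least 20 junction reads, of 2524 such circles in all.

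The libraries came from tissue labelled hippocampus of 14-month-old male C57BL/6 mice. 3 libraries came from mice injected under the skin once a day for 14 days with dihydrotestosterone (DHT), an androgen that cannot be converted to estradiol. 3 came from mice given medical corn oil in the same way. The labels also call the DHT mice the testosterone group and do not say whether a library is 1 animal, and so the p-values cover library-to-library variation alone. RNA was sequenced for circular RNA (circRNA), which forms when a downstream splice donor joins an upstream acceptor.

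Cadherins are calcium-dependent adhesion proteins whose extracellular repeats bind cadherins on the next cell. Classical type I and type II cadherins couple to actin through catenins and help to match presynaptic and postsynaptic partners in the hippocampus. Clustered protocadherins are expressed from alternative promoters in different combinations in single neurons and serve self-recognition of dendrites and axons. Fat and Celsr proteins are giant cadherins of planar cell polarity and growth control.

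5 promoters are shown because a first exon measured in these libraries starts at or near them. Celsr2 and Pcdh10 were among the most abundant members, Cdh22 was 1 of 3 members with an unadjusted p under 0.05, and Cdh12 and Cdh10 each have a start whose use differed between libraries. Each runs from 250 bases before to 50 bases after a RefSeq start on GRCm38.p6. The coordinates are chr3:108415530-108415829 (minus strand) for Celsr2, chr3:45378148-45378447 (plus) for Pcdh10, chr2:165234688-165234987 (minus) for Cdh22, chr15:21111202-21111501 (plus) for Cdh12 and chr15:18820079-18820378 (plus) for Cdh10. Capitals mark the androgen receptor half-site AGAACA or its other strand TGTTCT, and the E-box CACCTG or its other strand CAGGTG.
Celsr2 promoter: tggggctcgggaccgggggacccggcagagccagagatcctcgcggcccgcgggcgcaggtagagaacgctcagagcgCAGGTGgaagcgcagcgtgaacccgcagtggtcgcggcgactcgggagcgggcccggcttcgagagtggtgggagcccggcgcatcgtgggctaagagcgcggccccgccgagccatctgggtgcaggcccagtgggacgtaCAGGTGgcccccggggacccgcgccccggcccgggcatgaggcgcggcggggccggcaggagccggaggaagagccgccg
Pcdh10 promoter: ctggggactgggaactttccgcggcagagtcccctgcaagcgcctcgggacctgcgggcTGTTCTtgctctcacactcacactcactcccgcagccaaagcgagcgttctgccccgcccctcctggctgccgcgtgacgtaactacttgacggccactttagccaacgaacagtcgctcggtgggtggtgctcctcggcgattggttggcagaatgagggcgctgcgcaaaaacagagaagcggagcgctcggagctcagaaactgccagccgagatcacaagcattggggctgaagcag
Cdh22 promoter: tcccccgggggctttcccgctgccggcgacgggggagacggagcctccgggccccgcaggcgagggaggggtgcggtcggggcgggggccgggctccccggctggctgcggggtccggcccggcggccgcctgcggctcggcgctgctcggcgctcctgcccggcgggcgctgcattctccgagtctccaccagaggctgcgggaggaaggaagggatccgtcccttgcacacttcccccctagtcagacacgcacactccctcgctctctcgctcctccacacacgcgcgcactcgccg
Cdh12 promoter: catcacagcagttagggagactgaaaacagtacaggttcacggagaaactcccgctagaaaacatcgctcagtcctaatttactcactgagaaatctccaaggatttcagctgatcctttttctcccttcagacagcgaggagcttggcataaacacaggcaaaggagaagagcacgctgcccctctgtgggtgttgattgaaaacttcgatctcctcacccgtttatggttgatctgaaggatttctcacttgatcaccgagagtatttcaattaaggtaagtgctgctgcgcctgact
Cdh10 promoter: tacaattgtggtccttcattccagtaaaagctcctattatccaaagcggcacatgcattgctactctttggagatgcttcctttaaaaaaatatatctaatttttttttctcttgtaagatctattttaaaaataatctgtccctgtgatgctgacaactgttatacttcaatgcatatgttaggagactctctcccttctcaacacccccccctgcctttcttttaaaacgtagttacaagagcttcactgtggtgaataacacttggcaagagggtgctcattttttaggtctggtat
GC content was 76.3% in the Celsr2 window, 62.3% in Pcdh10, 76.3% in Cdh22, 46.7% in Cdh12 and 37.7% in Cdh10, and the CpG counts were 40, 24, 38, 9 and 2. The half-site was in the Pcdh10 window and the E-box was in the Celsr2 window 2 times. The Cdh22, Cdh12 and Cdh10 windows held none of the motifs searched. Over the 31 promoter entries found for 28 member genes, the full androgen response element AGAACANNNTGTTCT was in 0, against 0.00913% of all 32851 promoters in the RefSeq table. The half-site was in 12.9% of member promoters and 19.0% of all promoters, the E-box in 22.6% and 20.2%, and the TATA box TATAAA in 6.45% and 13.6%, each on either strand. A first-exon event began within 200 bases of the start in 22 of the 31 entries. The member shares therefore also count windows without such an event nearby. No entry was found for some abundant members, among them Pcdh1, Cdh2, Cdh11 and Cdh13. Some genes have more than 1 entry. Every Cdh7 entry held the E-box, so the member share of the E-box counts that gene more than 1 time. The motif counts are letter matches only.

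Back-splice junction reads numbered 55325, 49815 and 43512 in the DHT libraries, against 48212, 45803 and 43573 in the oil libraries. Over all genes tested, 63.6% had a higher value in DHT, with a median log2 fold change of 0.07. After each library was centred on its median, 51.4% did. Of 9 markers of striatal neurons fixed for the tissue check, 8 averaged over 5 FPKM, with sums of 185.0, 349 and 292 FPKM in DHT and 273, 297 and 266 FPKM in oil. Of 10 hippocampal neuron markers, 2 did, with sums of 11.0, 32.8 and 21.3 FPKM in DHT and 13.7, 29.2 and 28.0 FPKM in oil. Neurod2 and Lct of the hippocampal list and Drd1 of the striatal list were at 0 in every library. Choroid plexus sums were 1.29, 2.15 and 31.3 FPKM in DHT and 80.2, 14.1 and 3.52 FPKM in oil. The part of these tissue differences in the results was not tested.

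No member passed an adjusted p of 0.05 for its gene value, the larger of the summed first-exon and summed last-exon FPKM of a locus (limma, adjusted p 0.658 to 0.986). Of all genes tested, 0.0176% were called. 17 of the 31 members were higher in DHT and 14 lower. Their median log2 fold change was 0.03, against 0.07 over all genes. Centred libraries gave 12 higher and 19 lower, with a median of -0.03 against 0.01. At an unadjusted p under 0.05 there were 3 members (9.68%), against 7.34% of all genes. The groups did not overlap in 7 members (22.6%), against 15.1% of all genes. 5 of the 7 were higher in DHT, where the share over all genes was 12%, and 2 were lower, where it was 3.15%. Centred libraries gave 5 higher and 3 lower members without overlap, against 792 and 691 of all 11368 genes. With that centring 1 member had an unadjusted p under 0.05 (limma), against 685 of all genes.

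**Figure D1:**
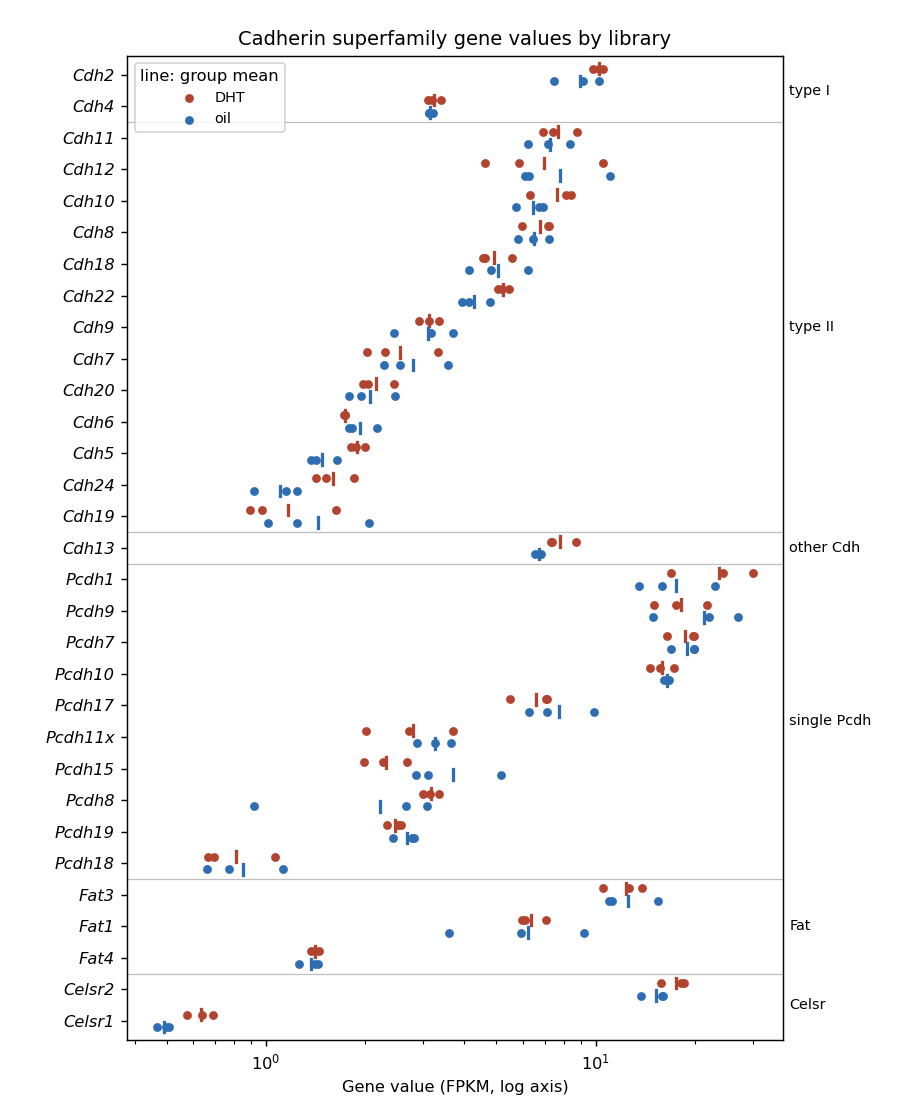
Gene values in FPKM on a log axis for the 31 tested members, with 1 point per library, DHT above oil, and a line at each group mean. Members are ordered by family. The points of both groups lie over each other for most genes, and Pcdh1, Pcdh9, Pcdh7, Celsr2 and Pcdh10 were the highest.

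The levels of the members spanned a wide range. Pcdh1, a protocadherin with its own gene outside the clusters, had 29.9, 24.3 and 16.9 FPKM in DHT and 13.5, 15.9 and 23.0 FPKM in oil. Pcdh9 had 17.5, 21.8 and 15.1 FPKM in DHT and 27.0, 22.0 and 14.9 FPKM in oil. Pcdh7 averaged 18.7 ± 1.95 FPKM in DHT and 18.9 ± 1.72 FPKM in oil (SD, n = 3 each). These neighbours in the order of levels differed by less than their spread over libraries. At the other end, 6 members were below 0.01 FPKM in every library: Pcdh12, Cdh16, Cdh17, Cdh26, Fat2 and Pcdhb22. Cdh16 and Cdh17 are cadherins of kidney and intestine.

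Among type I cadherins, 4 had a locus and 2 were tested. Cdh2, N-cadherin, the main classical cadherin of neural tissue and synapses, had 9.84, 10.3 and 10.5 FPKM in DHT and 9.13, 7.45 and 10.3 FPKM in oil. The groups overlapped, and the log2 fold change was 0.19 ± 0.13 (SE, adjusted p = 0.726). Cdh4, R-cadherin, had nearly the same mean, 3.23 ± 0.159 FPKM in DHT and 3.15 ± 0.0455 FPKM in oil (SD, n = 3 each). Cdh1, the epithelial E-cadherin, stayed under the limit for testing at 0.277 ± 0.0694 FPKM in DHT and 0.293 ± 0.0725 FPKM in oil (SD, n = 3 each), and Cdh3, P-cadherin, was listed at 0 in 3 libraries.

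All 13 type II cadherins with a locus were tested. 8 were higher in DHT and 5 lower (median log2 fold change 0.06). Cdh24, a type II cadherin that binds catenins, had the smallest p of the members, with 1.53, 1.85 and 1.42 FPKM in DHT and 1.24, 1.15 and 0.918 FPKM in oil. All DHT libraries were above all oil libraries. The log2 fold change was 0.39 ± 0.15 (SE, unadjusted p = 0.0351, adjusted p = 0.658). It was 0.23 when the fullest single exon stood for the gene, and first-exon sums alone left Cdh24 under the limit for testing.

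Cdh22, a type II cadherin of brain, had 5.05, 5.45 and 5.22 FPKM in DHT and 4.77, 3.92 and 4.12 FPKM in oil. The DHT libraries were again above the oil libraries, and the log2 fold change was 0.27 ± 0.11 (SE, unadjusted p = 0.0451, adjusted p = 0.658). Its 300-base promoter window, shown above, has the same GC content as the Celsr2 window, 76.3%. Cdh5, VE-cadherin, the adherens junction cadherin of endothelial cells, had 1.99, 1.87 and 1.82 FPKM in DHT and 1.42, 1.37 and 1.65 FPKM in oil. The groups did not overlap either, with a log2 fold change of 0.27 ± 0.12 (SE, adjusted p = 0.658). The 5 endothelial markers with a locus summed to 24.3, 25.2 and 26.8 FPKM in DHT and 19.0, 19.3 and 32.3 FPKM in oil. Ly6c1 made up 18.8 FPKM of the sum in the third oil library. 4 of the 5 had a higher log2 mean in DHT (median log2 fold change 0.19), and Tek had groups that did not overlap, with 1.09, 0.964 and 1.19 FPKM in DHT and 0.825, 0.864 and 0.828 FPKM in oil. The part of endothelial markers in the Cdh5 values was not tested. A difference in the number of cells of a type and one in RNA per cell cannot be told apart in bulk tissue.

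Cdh6 was the type II cadherin whose DHT libraries were all below the oil libraries, with 1.74, 1.73 and 1.73 FPKM in DHT and 1.82, 1.79 and 2.18 FPKM in oil. The distance between the nearest libraries was small, and the log2 fold change was -0.12 ± 0.12 (SE, adjusted p = 0.805). First-exon sums alone gave 0.000405. Cdh8, Cdh9 and Cdh10, type II cadherins of restricted sets of neurons, had log2 fold changes of 0.06, 0.03 and 0.22, of which Cdh8 and Cdh9 turned to -0.00229 and -0.0356 with centred libraries. Cdh9, needed for mossy fibre synapses in mouse hippocampus, had 2.91, 3.13 and 3.36 FPKM in DHT and 3.16, 3.69 and 2.45 FPKM in oil. Its groups overlapped. Cdh12 varied the most within groups, with 5.87, 4.61 and 10.5 FPKM in DHT and 6.10, 11.0 and 6.28 FPKM in oil, and 1 library of each group was well above the other two. Cdh11, the most abundant type II cadherin here, had 6.90, 8.75 and 7.43 FPKM in DHT and 6.25, 8.34 and 7.16 FPKM in oil. Cdh10 had 8.41, 8.16 and 6.32 FPKM in DHT and 6.94, 6.74 and 5.73 FPKM in oil, and its 2 highest libraries were DHT ones. Cdh7, Cdh11, Cdh18, Cdh19 and Cdh20 had log2 fold changes of -0.12, 0.08, -0.03, -0.21 and 0.06, all with overlapping groups, and Cdh20 turned to -0.00596 with centred libraries.

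Cdh13, T-cadherin, which is held in the membrane by a lipid anchor and lacks a cytoplasmic tail, had 7.35, 8.70 and 7.31 FPKM in DHT and 6.81, 6.79 and 6.54 FPKM in oil. The DHT libraries were all higher, with a log2 fold change of 0.20 ± 0.11 (SE, adjusted p = 0.685). Cdh23, a tip-link protein of hair cells, was under the limit for testing at 0.413, 0.130 and 0.211 FPKM in DHT and 0, 0.489 and 0.209 FPKM in oil.

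Protocadherins with a gene of their own included 12 with a locus and 10 tested, of which 2 were higher in DHT and 8 lower (median log2 fold change -0.07). Pcdh15, the tip-link partner of Cdh23, which oligodendrocyte precursors also express, had 2.67, 2.27 and 1.99 FPKM in DHT and 5.17, 2.85 and 3.10 FPKM in oil. All DHT libraries were below all oil libraries, 1 of which was far above the rest. The log2 fold change was -0.55 ± 0.22 (SE, unadjusted p = 0.0420, adjusted p = 0.658). It was -0.14 with the fullest single exon and -0.27 with last-exon sums, and -0.31 without oil replicate 1. Cspg4, the only oligodendrocyte precursor marker with a locus, had 2.07, 1.87 and 2.21 FPKM in DHT and 2.01, 1.87 and 1.40 FPKM in oil.

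The remaining single protocadherins had overlapping groups. Pcdh8, an activity-regulated protocadherin also called arcadlin, had 3.00, 3.14 and 3.35 FPKM in DHT and 3.08, 2.66 and 0.922 FPKM in oil and 1 oil library was far below the other five. Pcdh10, known for roles in synapse elimination, had 14.6, 15.6 and 17.3 FPKM in DHT and 16.1, 16.7 and 16.6 FPKM in oil. Pcdh19, an X-linked gene of female-limited epilepsy in humans, had 2.33, 2.52 and 2.57 FPKM in DHT and 2.77, 2.81 and 2.43 FPKM in oil. Its groups overlapped through a single oil library. Pcdh17, which groups axons of the same circuit in mice, had 5.52, 7.14 and 7.08 FPKM in DHT and 7.13, 9.86 and 6.30 FPKM in oil. Pcdh11x, an X-linked protocadherin, had 2.01, 3.68 and 2.71 FPKM in DHT and 3.64, 3.26 and 2.87 FPKM in oil. Pcdh17, Pcdh11x and Pcdh18 had log2 fold changes of -0.21, -0.21 and -0.05. Pcdh1 and Pcdh8 were the 2 with higher means in DHT, with log2 fold changes of 0.43 ± 0.26 (SE, adjusted p = 0.712) and 0.54 ± 0.33 (SE, adjusted p = 0.715). Last-exon sums alone gave Pcdh7 a log2 fold change of -1.84 (unadjusted p = 0.00107, adjusted p = 0.509, limma), against -0.02 for its gene value.

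**Figure D2:**
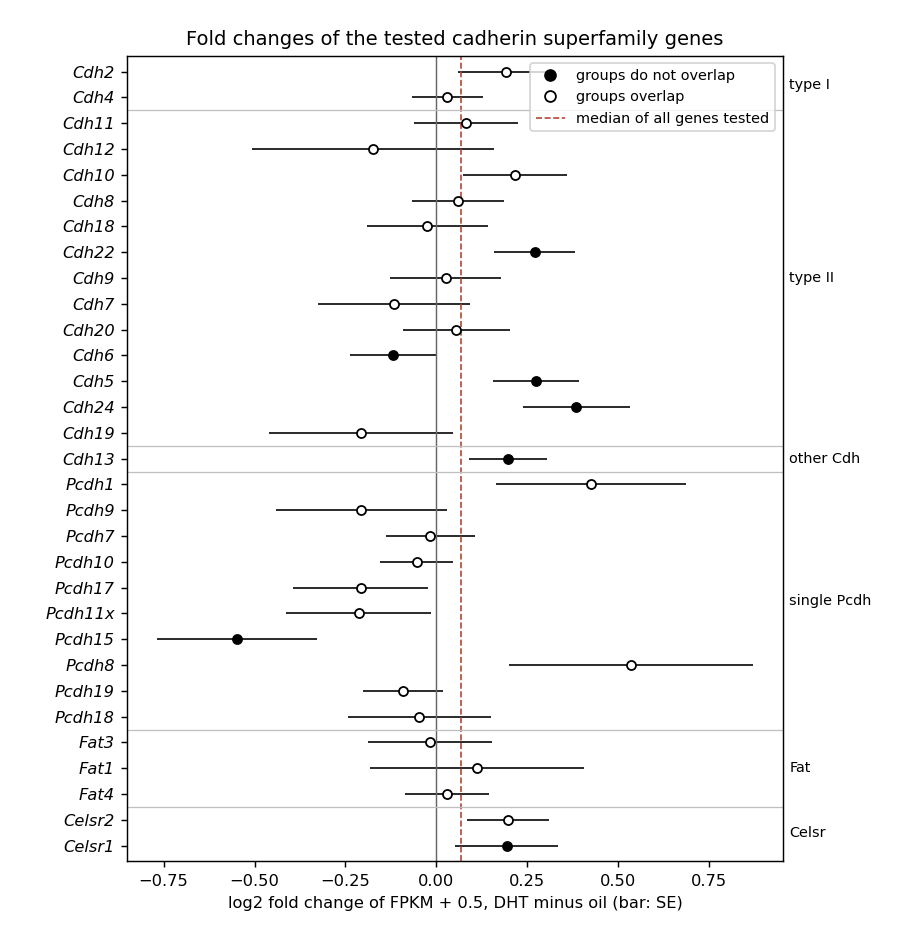
Log2 fold change of FPKM plus 0.5, DHT minus oil, with its SE, for the 31 tested members by family. Filled points mark the 7 members whose groups do not overlap, and the dashed line marks the median of all genes tested at 0.07. None passed the adjusted threshold, and 8 of the 10 single protocadherins lie left of 0.

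Of the giant cadherins, 3 of 4 Fat genes and both Celsr genes with a locus of their own were tested. Fat3, which shapes the dendrites of amacrine cells in mouse retina, had 10.5, 12.7 and 13.9 FPKM in DHT and 11.2, 15.5 and 11.0 FPKM in oil. The groups overlapped with a log2 fold change of -0.02 ± 0.17 (SE, adjusted p = 0.986). Fat1 had 6.09, 7.08 and 5.96 FPKM in DHT and 3.59, 5.96 and 9.19 FPKM in oil, so the oil libraries spanned all DHT libraries. Fat4, a receptor for Dchs1, had 1.37, 1.45 and 1.41 FPKM in DHT and 1.41, 1.44 and 1.26 FPKM in oil. Its log2 fold change of 0.03 became -0.67 with first-exon sums.

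Celsr2, a planar polarity cadherin of axon tracts and motile cilia, had 18.5, 18.1 and 15.8 FPKM in DHT and 16.0, 13.7 and 15.9 FPKM in oil. The groups overlapped by a narrow margin (log2 fold change 0.20 ± 0.11, SE, adjusted p = 0.696). Celsr1 was low, with 0.640, 0.691 and 0.577 FPKM in DHT and 0.468, 0.509 and 0.499 FPKM in oil. The DHT libraries were all higher (log2 fold change 0.19 ± 0.14, SE, adjusted p = 0.747). Celsr3 had no locus under its own symbol, but a locus labelled Gm23156 at chr9:108826320-108846708 lies over it. That locus had 6.22, 5.86 and 3.93 FPKM in DHT and 3.79, 3.47 and 5.50 FPKM in oil, with a log2 fold change of 0.30 (adjusted p = 0.751).

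The clustered protocadherins were reached in part. 8 Pcdhb genes had a locus of their own, each listed at 0 in at least 1 library, and none averaged 0.5 FPKM. The highest, Pcdhb13, had 0.797, 0 and 1.29 FPKM in DHT and 0, 0 and 0.798 FPKM in oil. The alpha and gamma clusters lie in 1 locus labelled Gm38182, at chr18:36930184-37825079, with 56 first-exon events and 2 last-exon events. In this arrangement each variable first exon has its own promoter and is spliced to constant exons shared by the cluster. The locus had 121, 97.2 and 116 FPKM in DHT and 90.7, 110.5 and 104 FPKM in oil. The groups overlapped (log2 fold change 0.13, adjusted p = 0.801).

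By position, 49 of the 56 first-exon events began within 200 bases of the RefSeq start of 36 variable exons, 14 alpha and 22 gamma. Events at 1 start were summed. The variable exons resemble each other, so fragments may have been split between them, and no test was made on single ones. Gamma exons took 84.1%, 81.1% and 86.8% of the summed first-exon FPKM in DHT and 81.6%, 82.9% and 83.6% in oil, ranges that overlap. The C-type gamma exons, which most neurons use, took 21.5%, 17.4% and 21.1% in DHT and 21.8%, 22.8% and 19.2% in oil.

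The C-type exons differed among themselves. Pcdhgc4 was listed at 0 in the second oil library, while the others were above 0 throughout. Pcdhgc3 had 13.5, 8.78 and 13.6 FPKM in DHT and 7.33, 13.0 and 10.5 FPKM in oil. Pcdhgc5 had 8.80, 5.59 and 8.90 FPKM in DHT and 11.0, 12.05 and 7.01 FPKM in oil. Pcdhac2, the alpha C-type exon used by serotonin neurons in mice, had 5.74, 6.43 and 5.92 FPKM in DHT and 5.18, 5.60 and 4.81 FPKM in oil. Its groups did not overlap, as in Pcdhga4, Pcdhga9 and Pcdhgb7, all 4 of the 36 higher in DHT, and no exon had all DHT libraries lower. Over all gene values those shares were 12% and 3.15%, and more genes were higher than lower in DHT, so these counts are not read as particular to the clusters. Pcdhac2 averaged 6.03 ± 0.357 FPKM in DHT and 5.19 ± 0.396 FPKM in oil (SD, n = 3 each).

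Evenness over libraries also differed between exons. The alternate exon Pcdha5 was the most even, with 1.62, 1.35 and 1.57 FPKM in DHT and 1.34, 1.52 and 1.43 FPKM in oil. 16 of the 36 exons differed more than 10-fold between their lowest and highest library or were listed at 0 in one. Pcdhgb8 reached 18.9 FPKM in the third DHT library and was at 0.563 and 0.00120 FPKM in the others, against 0.00467, 2.69 and 0.108 FPKM in oil. Pcdhgb4 reached 17.2 FPKM in the third oil library, against 0.422 to 1.90 FPKM in the other two and 0.396 to 1.70 FPKM in DHT. Pcdhgb1 had 10.1, 0.890 and 2.51 FPKM in DHT and 0.804, 17.8 and 2.27 FPKM in oil. A single high library thus occurred in both groups.

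**Figure D3:**
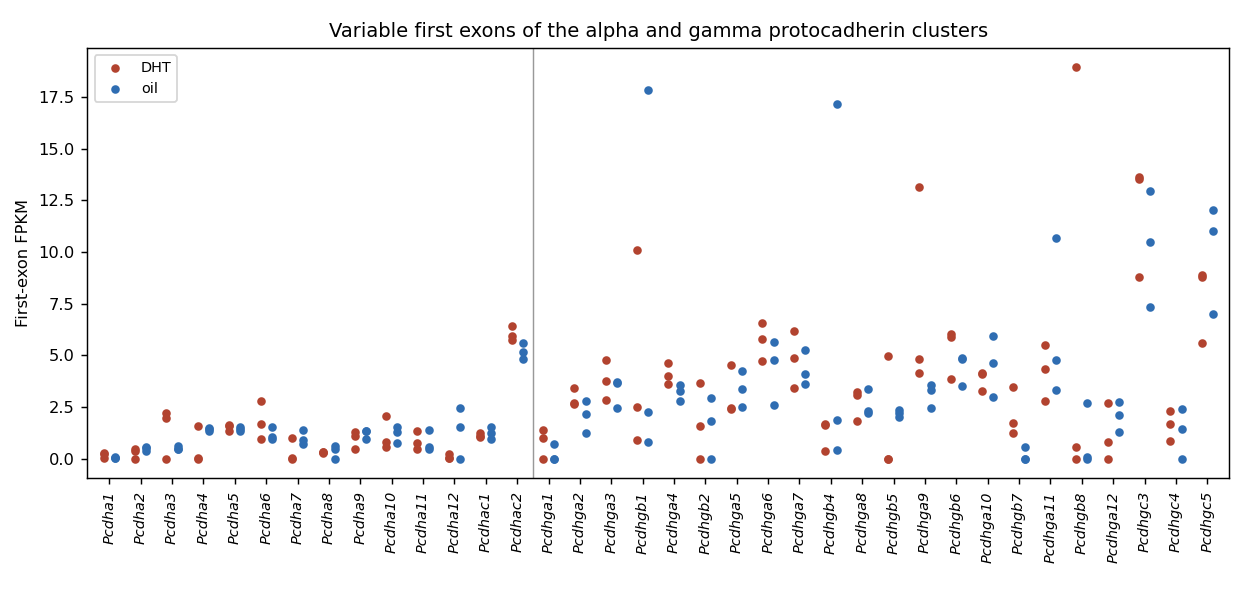
First-exon FPKM of the 36 matched variable exons in genomic order, alpha left of the line and gamma right of it, with DHT left of oil and 1 point per library. Pcdhac2, Pcdhgc3 and Pcdhgc5 were high in all libraries, while Pcdhgb1, Pcdhgb4 and Pcdhgb8 were high in single libraries of either group.

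First-exon use is the ratio of a first exon to the other first exons of its locus, whether or not the total changed. The 0.5 FPKM added to both lets this ratio move with the total where an exon is near 0. The members had 141 first-exon events, and 31 genes had more than 1. 35 first exons of 15 genes held between 5% and 95% of a locus with at least 1 FPKM and were tested. None passed (limma, lowest adjusted p = 0.944), where 0.0147% of all first exons tested were called. 1 had an unadjusted p under 0.05, against 5.01% of all. On simulated data this test recovered almost none of the changes put in, so the absence of calls says little about first-exon use. On the log2 ratio to the other first exons, 2 had groups that did not overlap, both lower in DHT, against 5.49% of all first exons in that direction.

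The first of these 2 is the Cdh12 exon at chr15:21111452-21111479, which starts at the promoter shown above. It took 0.287%, 0.322% and 17.0% of Cdh12 first-exon FPKM in DHT and 21.0%, 28.0% and 16.3% in oil. As a share its groups overlapped, since the third DHT library was above the third oil library. The log2 ratio changed by -1.40 ± 0.54 (SE, unadjusted p = 0.0355, adjusted p = 0.944). The main Cdh12 exon, at chr15:20449119-20449366, took 92.9%, 78.2% and 73.5% in DHT and 71.5%, 68.5% and 79.5% in oil.

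The second is a Pcdh9 exon at chr14:93603060-93614341, listed at 0 in all DHT libraries and at 3.19, 4.16 and 0 FPKM in oil. Its groups therefore overlap at 0. With 0.5 FPKM added, the log2 ratio of an exon at 0 follows the sum of the other exons alone. Only that sum set the third oil library apart from the DHT libraries, so the separation is not a difference in use of this exon. The main Pcdh9 exon at chr14:93890121-93890669 took 87.1%, 39.4% and 92.8% in DHT and 30.1%, 59.9% and 88.3% in oil. A neighbouring start at chr14:93885697-93888732 took 60.6% in the second DHT library and 48.5% in the first oil library and at most 11.7% in the rest. Both groups thus held libraries with either start.

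Cdh10 and Fat1 each had 1 library that differed from the other five. The Cdh10 exon at chr15:18820329-18820700, at the promoter shown above, took 8.21%, 75.5% and 0.310% in DHT and 10.8%, 4.69% and 0.390% in oil. The start at chr15:18818947-18819087 took the remainder in most libraries, with 13.9% in the second DHT library. Fat1 used the exon at chr8:44935802-44936310 for 68.6% of first-exon FPKM in the first oil library and for 0% in the other five. Pcdh8, Pcdh17, Pcdh11x, Cdh4, Cdh6, Cdh7, Cdh11, Cdh18, Cdh19, Cdh20 and Pcdh15 made up the other genes tested, and their groups overlapped.

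**Figure D4:**
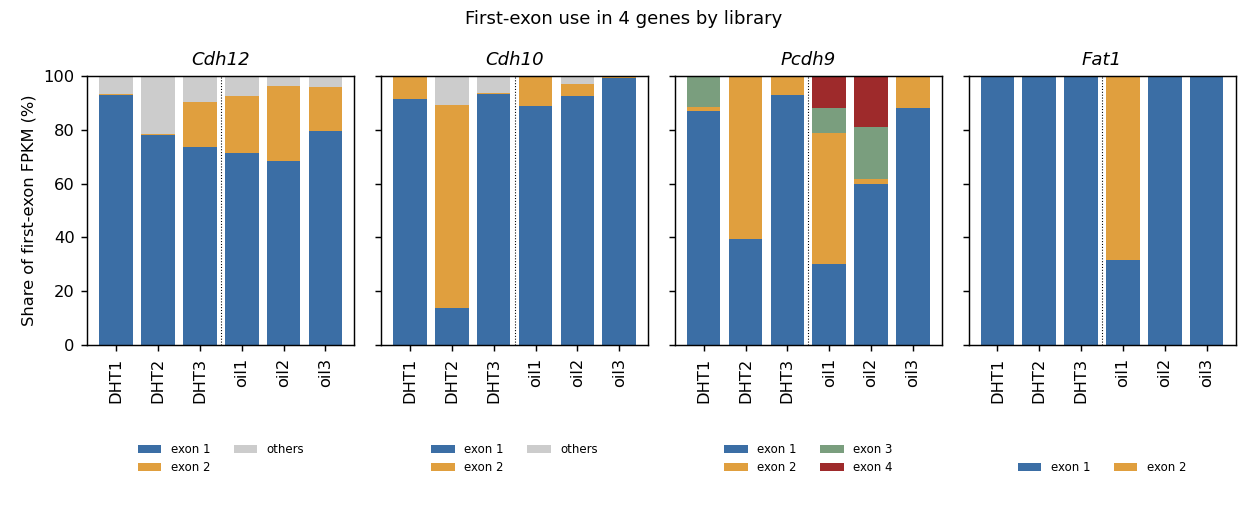
Share of first-exon FPKM taken by each tested first exon of Cdh12, Cdh10, Pcdh9 and Fat1 in each library, DHT left of the dotted line and oil right of it, with exons numbered by mean share and untested exons in grey. Cdh10 in the second DHT library (75.5% in exon 2) and Fat1 in the first oil library (68.6% in exon 2, at 1.09 FPKM) stand apart from the other libraries.

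Circular RNAs of members took 462, 378 and 428 junction reads in DHT and 358, 384 and 298 in oil. That was 0.835%, 0.759% and 0.984% of all junction reads in DHT and 0.743%, 0.838% and 0.684% in oil, ranges that overlap. 46 of the 60 circles were exonic and 14 intronic by the authors' type. 30 of them (50.0%) were listed in a single library, against 47.8% of all circles, and a circle is listed only from 2 reads. 60.7% of the 2308 member junction reads lay in 1 circle of Fat3.

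The large Fat3 circle, at chr9:16374949-16378254 on the minus strand with a span of 3306 bases, had 297, 240 and 249 junction reads in DHT and 212, 227 and 177 in oil. It ranked 7 among all circles by junction reads. Scaled to library size, its level was 5282 ± 382 CPM of junction reads in DHT and 4483 ± 397 in oil (SD, n = 3 each). The groups overlapped, and the log2 fold change was 0.24 ± 0.16 (SE, adjusted p = 0.996, edgeR quasi-likelihood test).

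The linear reads that the authors list for the same circle numbered 421, 391 and 383 in DHT and 297, 325 and 258 in oil. All DHT libraries were above all oil libraries. The log2 fold change was 0.37 ± 0.10 (SE, unadjusted p = 0.000998, adjusted p = 0.0786, edgeR quasi-likelihood test), and leaving out the first DHT library gave 0.40 with an adjusted p of 0.0187. Over the other 5 omissions, adjusted p ran up to 0.329. Of 1581 circles listed in every library, 0.886% were called for linear reads and 17.6% had groups that did not overlap. Linear reads at a smaller Fat3 circle, at chr9:16246721-16247035, had a log2 fold change of 0.14 ± 0.10 (SE, adjusted p = 0.590), and the Fat3 gene value one of -0.02. At the Cdh10 circle, the other one whose groups did not overlap in linear CPM, the log2 fold change was 0.18 ± 0.09 (SE, adjusted p = 0.451). Both of these 2 of 9 circles were higher in DHT, where 8.86% of all circles had all DHT libraries higher and 8.79% had them lower, and 1 of the 9 had an unadjusted p under 0.05, against 11.8% of all.

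The share of circular reads at the large Fat3 circle, junction reads over junction plus linear reads, was 41.4%, 38.0% and 39.4% in DHT and 41.7%, 41.1% and 40.7% in oil. The ranges overlapped, and the log2 ratio of circular to linear reads differed by -0.09 ± 0.30 (SE, adjusted p = 0.988, limma). Only 2.78% of the 1581 circles had a higher median share, and the median over all was 4.90%, with quartiles at 2.19% and 11.0%. The circle coincides with a first-exon event of Fat3, at chr9:16374949-16378231. Their lower ends are the same base and their upper ends lie 23 bases apart. That event had 10.5, 5.62 and 8.38 FPKM in DHT and 3.96, 7.83 and 5.63 FPKM in oil, while the upstream Fat3 starts were at or below 0.0235 FPKM. The Fat3 gene value came from the last exons, of which the main one, at chr9:15910189-15915621, had 10.5, 12.7 and 10.2 FPKM in DHT and 11.2, 11.3 and 9.50 FPKM in oil. First-exon sums alone gave a log2 fold change of 0.47 (adjusted p = 0.717, limma). In the first DHT library both sums were 10.5 FPKM.

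Fat1 had a circle of nearly the same span, 3286 bases, at chr8:44950196-44953481. It had 25, 19 and 19 junction reads in DHT and 21, 26 and 7 in oil, and its circular share was 13.7%, 13.0% and 13.1% in DHT and 13.0%, 20% and 4.86% in oil. The oil libraries spanned the DHT libraries on both measures. The log2 fold change of its level was 0.12 ± 0.40 (SE, adjusted p = 0.996, edgeR quasi-likelihood test).

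None of the 14 member circles with at least 20 junction reads passed the test of level (edgeR, each adjusted p = 0.996), where 0.0% of 2524 circles were called. 9 were higher in DHT and 5 lower. 1 had an unadjusted p under 0.05, where 3.13% of all circles did, and 2 had groups that did not overlap, where 11.1% did. 1 of these 2 was higher (5.74% of all circles) and 1 lower (5.31%). DESeq2 also called 0 of the 2524. The same held for junction reads summed by host gene, with 0 of 11 member hosts called where 0.058% of 1723 hosts were. 1 member host, Pcdh7, had an unadjusted p under 0.05, where 4.24% of hosts did. No member host had groups that did not overlap, where 11.0% did, 6.15% higher and 4.82% lower in DHT.

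The circle with an unadjusted p under 0.05 was a Pcdh7 circle at chr5:57913156-57942262. It had 47 junction reads in the third DHT library, with 571 linear reads, and was not listed in the other five libraries. A single library thus carried all its reads. Without a filter on low counts it passed with an adjusted p of 1.33e-05 (edgeR quasi-likelihood test). The Pcdh7 gene value in that library was 19.9 FPKM, the highest of the libraries by a narrow margin, since the first oil library also rounds to 19.9 FPKM.

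Of the other member circles with small p in this test, the 315-base Fat3 circle and the Cdh7 circle, whose groups did not overlap, are described with their circular to linear ratios, and those given here had overlapping groups. An intronic circle at chr15:20833297-20840805, assigned to both Gm49685 and Cdh12, had 14, 6 and 7 junction reads in DHT and 7 in the third oil library, and was not listed in the other two oil libraries. A Pcdh17 circle at chr14:84532875-84533695 had 4 junction reads in the third DHT library and was not listed in the other two, against 4, 8 and 8 in oil. An exonic Pcdh15 circle at chr10:74482037-74504808 had 3, 3 and 2 junction reads in DHT and 16 and 4 in the first and the third oil libraries. All 3 were low counts, and a circle that is not listed may still have had 1 read. The Cdh9 circle at chr15:16823159-16832278, with 14, 14 and 10 junction reads in DHT and 9, 22 and 21 in oil, was lower in DHT on average, with groups that overlapped through 1 oil library.

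The ratio of circular to linear reads was tested for the 9 member circles listed in all libraries, and none passed (limma, lowest adjusted p = 0.796; 0.0% of 1581 called). 2 had an unadjusted p under 0.05, where 5.31% of all did, and the same 2 had groups that did not overlap, where 9.8% did, 5.63% higher and 4.17% lower in DHT. The smaller Fat3 circle, with a span of 315 bases, had 3, 4 and 4 junction reads in DHT and 8, 9 and 7 in oil. Its circular share was 0.792%, 1.11% and 1.15% in DHT and 2.47%, 2.69% and 2.38% in oil, lower in every DHT library. The log2 ratio differed by -1.24 ± 0.42 (SE, unadjusted p = 0.0106, adjusted p = 0.796, limma).

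The Cdh7 circle at chr1:110098271-110108955 went the other way, with 7, 11 and 5 junction reads in DHT and 4, 4 and 3 in oil. Its circular share was 8.14%, 11.5% and 8.93% in DHT and 3.70%, 4.76% and 4.11% in oil, higher in every DHT library. The log2 ratio differed by 1.17 ± 0.37 (SE, unadjusted p = 0.00771, adjusted p = 0.796, limma). At 11 reads or fewer per library, counting error alone is large for both circles. Circles of Cdh9, Cdh10, Pcdh15, Pcdh17 and Pcdh11x had overlapping groups, with 3 to 22 junction reads per library. The intronic Pcdh15 circle, assigned to both Pcdh15 and Gm15398, had the highest median share of the 9. Its share was 63.0%, 50% and 58.8% in DHT and 80%, 25% and 35.3% in oil, from 3 to 12 linear reads per library.

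**Figure D5:**
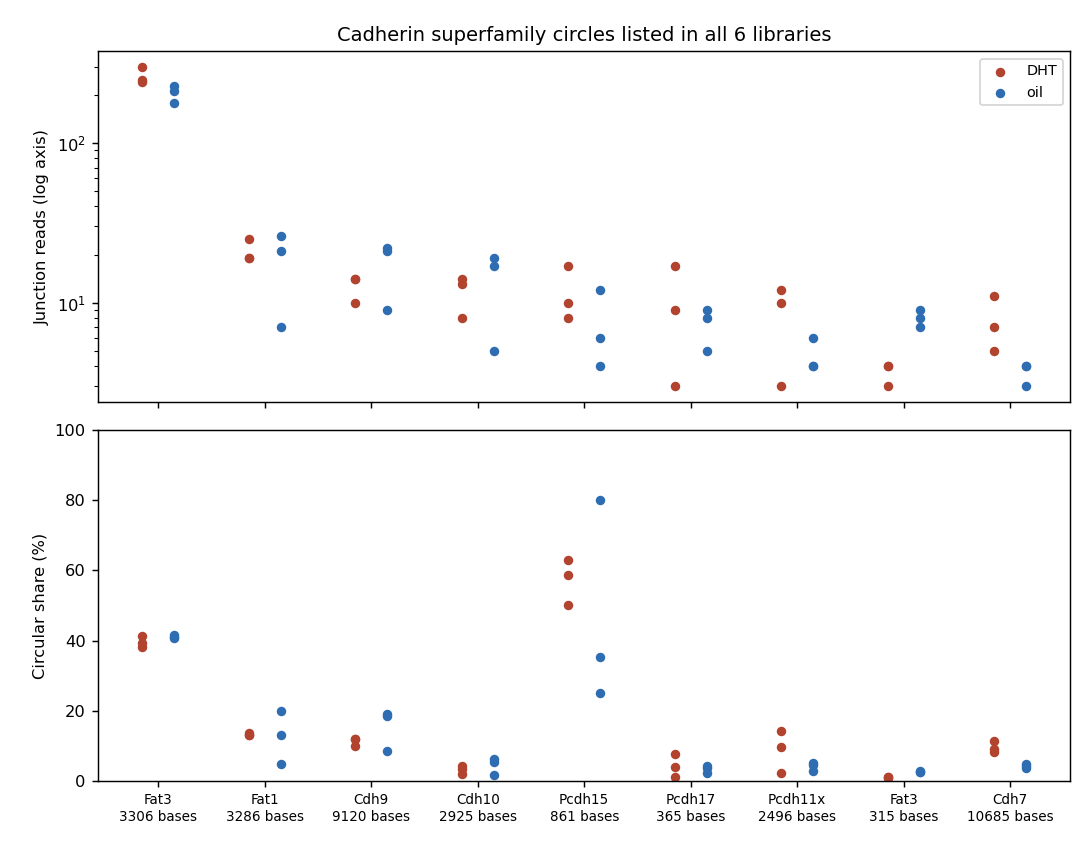
Junction reads on a log axis (top) and circular share in percent (bottom) for the 9 member circles listed in all 6 libraries, with DHT left of oil and 1 point per library; equal values overlie each other. The 3306-base Fat3 circle had 177 to 297 junction reads and a share of 38.0% to 41.7%, and the 315-base Fat3 circle and the Cdh7 circle are those whose shares do not overlap.

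Genes that work with cadherins were followed through lists fixed with earlier results of these data known. No gene of these lists passed an adjusted p of 0.05 (limma). Over all genes tested, 63.6% were higher in DHT and 15.1% had groups that did not overlap, 12% higher and 3.15% lower in DHT. With centred libraries 51.4% of all genes were higher, and the genes of these lists were not counted that way. Of 10 tested catenins and adaptors, which link cadherins to actin, 9 were higher in DHT and 1 lower. The median of their log2 fold changes was 0.13, against 0.07 over all genes. Ctnnd2, delta-catenin of dendritic spines, had 33.4, 32.3 and 32.2 FPKM in DHT and 31.3, 27.2 and 27.3 FPKM in oil. It was the only one of the 10 whose groups did not overlap (log2 fold change 0.19 ± 0.10, SE, adjusted p = 0.678). Ctnnb1, beta-catenin, had 54.2, 48.3 and 29.7 FPKM in DHT and 14.5, 40.8 and 33.0 FPKM in oil.

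Of 10 tested effectors of protocadherin cytoplasmic tails, 7 were higher in DHT and 3 lower (median log2 fold change 0.06). Abi1, a subunit of the WAVE complex that drives branched actin, had 8.52, 8.11 and 8.04 FPKM in DHT and 6.11, 6.16 and 6.91 FPKM in oil. Its groups did not overlap (log2 fold change 0.34 ± 0.10, SE, unadjusted p = 0.0114, adjusted p = 0.652), but last-exon sums alone gave -0.41. Brk1, another WAVE subunit, had 24.3, 24.6 and 22.5 FPKM in DHT and 22.1, 21.4 and 21.2 FPKM in oil.

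Of 9 tested chromatin regulators of the protocadherin clusters, 1 was higher in DHT and 8 lower (median log2 fold change -0.11). Ctcf was on this list of 11 but had no locus. 2 of the 9 had groups that did not overlap, both lower in DHT, against 3.15% of all genes in that direction. The same 2 had an unadjusted p under 0.05 (limma), against 7.34% of all genes. Stag2, a cohesin subunit, had 7.91, 5.90 and 7.42 FPKM in DHT and 8.84, 9.39 and 9.08 FPKM in oil. The DHT libraries were all lower (log2 fold change -0.35 ± 0.13, SE, unadjusted p = 0.0297, adjusted p = 0.658), but the value was 0.04 with last-exon sums. Setdb1, a histone methyltransferase that silences the clusters in neurons, had 3.67, 3.02 and 3.94 FPKM in DHT and 4.72, 4.26 and 4.43 FPKM in oil. It was also lower in every DHT library (log2 fold change -0.30 ± 0.12, SE, adjusted p = 0.658). Values of Setdb1 under alternative settings, such as last-exon sums, are not given here.

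The other lists were mixed. 11 of 13 tested planar polarity and Fat partner genes were higher in DHT, and none had groups that did not overlap. Their median log2 fold change was 0.03, below the 0.07 over all genes. 4 of 6 other cadherin superfamily genes were higher, among them the calsyntenin Clstn1, with 163, 106 and 147 FPKM in DHT and 126, 129 and 109 FPKM in oil. 14 of the 20 genes of that list, which holds the desmosomal cadherins, averaged under 0.5 FPKM. Of 7 genes of cadherin cleavage, a set of Adam10 and gamma-secretase subunits, 5 were higher in DHT and 2 lower.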

How the data were processed

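RNA was sequenced in 6 libraries, 3 DHT and 3 oil. Per the submitters' processing notes, the tools included BWA, HISAT2 2.0.1, bcl2fastq 2.17.1.14 and cutadapt, and the build is named mm9. The deposited coordinates instead lie within the GRCm38 bounds of the host gene for 99.6% of 11392 circles and for 54 of 54 member circles. The authors deposited FPKM per assembled event (first exons, last exons and splicing), counts of back-splice and linear reads per circle, and a rounded score of junction reads scaled to mapped reads (SRPBM). Dividing counts by that score gave 143 M to 177 M mapped reads per library. The sources used here do not give the strand or the method of the linear counts. No 2 libraries of a group looked like copies of 1 library: chi-square over circles was 2.22 to 3.78 times its degrees of freedom.

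The larger of first-exon and last-exon sums was the gene value. log2(FPKM + 0.5) of genes averaging at least 0.5 FPKM, log2 ratios of circular to linear reads and log2 first-exon ratios (each with 0.5 added) were tested with limma 3.58.1, and junction reads (at least 20 over the libraries), host sums and linear reads with edgeR 4.0.16 quasi-likelihood tests and TMM factors. P-values were adjusted by Benjamini-Hochberg over the whole table at a threshold of 0.05. DESeq2 1.42.0 was an alternative. Library values were given for up to 3 members of highest level per family, up to 6 per direction of smallest p in the gene values, up to 4 per direction in the other tests and up to 6 circles with most reads. Other members, named for their role or for groups that do not overlap, were added after their values were seen. A circle naming several genes counted for each. Matching of clustered protocadherin exons by position was added after the data were seen. Members and lists were chosen with earlier results of these data known. All tests were checked on simulated data with changes of 2-fold or more put in. Gene values and linear reads recovered most of these changes. Circle levels, host sums and circular to linear ratios recovered mainly the largest, and first-exon use recovered almost none. For linear reads, circle levels and host sums, the simulation gave every feature of a test the same spread beyond counting error. Real features differ in spread, so the recovery there does not cover those that vary more. The tested member gene values had log2 fold changes of -0.55 to 0.54, smaller than any change put in. The recovery therefore does not cover changes of their size.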

Additional observations from a re-analysis of the deposited data

How the results depend on the processing

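No paired analysis was possible because the numbers in the labels are not shared between DHT and oil libraries, and the replicate numbers used here follow accession order and only name a library. For 77 named features there were 860 alternative values. Of these, 807 kept their direction and their side of the threshold, 50 changed sign and 3 passed only under an alternative. No named feature had passed in the main tests, so none could be lost. The counts of all genes called moved from 2 to 1 with a pseudocount of 0.1 or a limit of 1 FPKM, and to 0 with first-exon sums, last-exon sums or the fullest event. They ran from 0 to 4 when 1 library was left out. Circles called numbered 5 with no filter, 1 of them a member, and 0 to 1 when a library was left out. Hosts called numbered 0 with DESeq2, 3 with no filter, 1 of them a member, and 0 to 1 without 1 library. Linear counts gave 22 calls with DESeq2, 9 at 60 reads or more, and 5 to 19 without 1 library, of which 0 to 1 were members. Circular to linear ratios gave 0 to 1 without 1 library. First-exon use gave 0 with a pseudocount of 0.1, 0 with shares of 1 to 99% and 0 without any 1 library. The Pcdh7 circle passed with no filter, as did its host sum (adjusted p = 2.37e-05, edgeR), and the linear reads at the Fat3 circle passed without DHT replicate 1.

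Gene values that changed sign were Cdh4 (-0.0305), Rad21 (-0.0212), Prickle2 (-0.0270) and Fat4 (-0.0317) with centred libraries, as did Cdh8 (-0.00229), Cdh9 (-0.0356) and Cdh20 (-0.00596), which are outside the 77 features. With last-exon sums they were Stag2 (0.0446, also with the fullest event), Cdh11 (-0.0148), Cdh12 (0.26) and Abi1 (-0.41). With first-exon sums they were Cdh6 (0.000405), Fat4 (-0.67) and Fat3 (0.47, and 0.16 with the fullest event). When 1 library was left out, log2 values crossed 0 in Cdh4 (-0.00292 to 0.0563), Pcdh7 (-0.0924 to 0.0706), Prickle2 (-0.11 to 0.15), Cdh11 (-0.0134 to 0.18), Cdh12 (-0.49 to 0.0868), Fat4 (-0.0126 to 0.0549), Adam10 (-0.0496 to 0.0594), Fat1 (-0.20 to 0.42) and Fat3 (-0.10 to 0.14). Circle levels crossed 0 at the exonic Pcdh15 circle (-1.93 to 0.23), Pcdh17 (-0.44 to 0.76), Cdh10 (-0.67 to 0.0214) and Fat1 (-0.23 to 0.50), as did host sums of Cdh10 (-0.51 to 0.13) and Pcdh15 (-0.51 to 0.75). Linear reads crossed 0 at the intronic Pcdh15 circle (-0.57 to 0.18), Pcdh17 (-0.0404 to 0.0293) and Fat1 (-0.0786 to 0.12), and circular to linear ratios at the intronic Pcdh15 circle (-0.10 to 1.56), Cdh10 (-0.92 to 0.0569) and Fat1 (-0.34 to 0.77). The cause was not tested for any of these.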

Other observations

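The circles given here were chosen after their values were seen, and they had under 20 junction reads in all and entered no test. A Cdh7 circle at chr1:110060995-110108955, which shares its end with the tested Cdh7 circle, had 2, 6 and 2 junction reads in DHT and was listed in no oil library. A Cdh19 circle at chr1:110919548-110932265 was listed in no DHT library and had 8 and 4 junction reads in 2 oil libraries. Since circles are listed only from 2 reads, absence from a list does not give a count of 0. A further Cdh7 circle at chr1:109993986-110108955 had 10 junction reads in oil replicate 2 and none elsewhere above the listing limit.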
